A study of Mus musculus with 12 samples.

Results

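The 10 genes described here are 3 FOXO transcription factors and 7 enzymes that remove or repair the products of reactive oxygen. They were taken by name, as genes known to protect the quiescence of hematopoietic stem cells (HSCs), and all 10 were found among the 55335 genes of the count table by gene identifier matched to symbol. All 10 also passed the filter on low counts, with 18234 genes tested in all. HSCs were sorted from bone marrow, lysed directly and turned into cDNA with a kit for very small amounts of RNA, and the polyA RNA was sequenced in 12 libraries. There were 6 libraries of *Ythdc1* Δ/Δ HSCs (KO, samples named KO176, KO177 and KO209) and 6 libraries of *Ythdc1* +/+ HSCs (WT, samples named WT178, WT180 and WT207), with 2 libraries for each sample number. *Ythdc1* encodes a nuclear reader of the m6A mark on RNA, and it was deleted from floxed alleles in the KO mice.

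Both genotypes were of strain C57B6, both carried the Mx1-Cre transgene, and both received repeated injections of pIpC, which induces interferon and through it the recombinase, so that they differed in whether the *Ythdc1* alleles were floxed. The methods give 8 weeks as the age of donor mice. Mx1-Cre is not restricted to HSCs and also recombines in other interferon-responsive cells. The counts of the 2 libraries with the same sample number were summed, and 3 KO samples were compared with 3 WT samples. Whether each number stands for a separate mouse is not given by the labels, so every p-value covers only the variation among these samples, part of which could be technical. The summed samples held 45939230 to 46937648 counts in KO and 42098649 to 48095239 counts in WT. The mRNA of *Ythdc1* itself, on chromosome 5 from 86804221 to 86836659 of mm10, was at 65.3 ± 7.37 CPM (the counts of a gene scaled to the same total in every sample; SD, n = 3) in KO and 80.4 ± 10.7 CPM in WT, a log2 fold change of -0.30 (adjusted p = 0.521, edgeR). Its reads were counted over all exons, so this level checks the labels only weakly. All 13 HSC markers listed, such as *Kit*, *Mecom* and *Procr*, were detected. They summed to 1248 to 1304 CPM in KO and 1577 to 1688 CPM in WT, and 12 of the 13 had a lower estimate in KO, 0 of them past an adjusted p of 0.05. At an unadjusted p under 0.05 (edgeR), 6 were lower in KO, against 5.2% of all tested genes. In 5 every KO sample was below every WT sample, as in 8.59% of all tested genes.

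FOXO proteins are transcription factors that growth factor signals hold in check. When PI3K and AKT are active, AKT phosphorylates FOXO proteins and 14-3-3 proteins keep them in the cytoplasm, and when the signal fades they enter the nucleus and switch on genes for cell cycle arrest, autophagy, cell death and antioxidant defence. In mice that lack several FOXO factors, HSCs accumulate reactive oxygen and leave quiescence. Superoxide dismutases turn superoxide into hydrogen peroxide, which catalase, peroxiredoxins and glutathione peroxidases remove with the help of the thioredoxin and glutathione systems. The factor NRF2 drives many of these enzymes through a short DNA motif, the antioxidant response element (ARE).

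The enzymes stood far above the FOXO factors in transcript level. On the scale of CPM per kb of exon, *Gpx1*, the cytosolic glutathione peroxidase, was the most abundant of the 10 genes at 2036 ± 515 in KO and 2073 ± 148 in WT (SD, n = 3 each), above 99.95% of the tested genes in KO and 99.97% in WT. *Prdx1*, a peroxiredoxin, followed at 286 ± 34.8 in KO and 254 ± 5.59 in WT. *Gstm1*, a glutathione transferase, was at 202 ± 20.7 in KO and 232 ± 8.52 CPM per kb in WT. *Gstm1*, the lowest of these 3, was still above 98.4% of the tested genes in KO and 98.7% in WT.

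*Sod1*, the copper and zinc superoxide dismutase of the cytosol, was at 90.3 ± 12.5 CPM per kb in KO and 86.5 ± 5.11 in WT. *Cat*, the catalase of peroxisomes, was at 53.9 ± 5.48 in KO and 55.2 ± 9.02 in WT. *Sod2*, the manganese enzyme of mitochondria, had 20.0 ± 3.43 CPM per kb in KO and 19.4 ± 1.67 in WT, and *Txnrd1*, the cytosolic thioredoxin reductase, had 21.7 ± 2.07 in KO and 18.4 ± 1.35 in WT. *Sod2* and *Txnrd1* were the only neighbours in this order whose sample ranges overlapped, in both genotypes, and their means stood in opposite order in KO and WT.

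The 3 FOXO factors closed the order. *Foxo3* was at 4.46 ± 0.69 CPM per kb in KO and 4.62 ± 0.50 in WT, and *Foxo1* at 2.08 ± 0.38 in KO and 2.67 ± 0.43 in WT. *Foxo4* was barely expressed, at 0.15 ± 0.02 CPM per kb in KO and 0.18 ± 0.04 in WT, which rested on 20 to 29 counts per KO sample and 19 to 34 counts per WT sample. A level per kb rests on the whole annotated exon length, so a gene whose long annotated exons are little used would be placed too low.

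**Figure D1:**
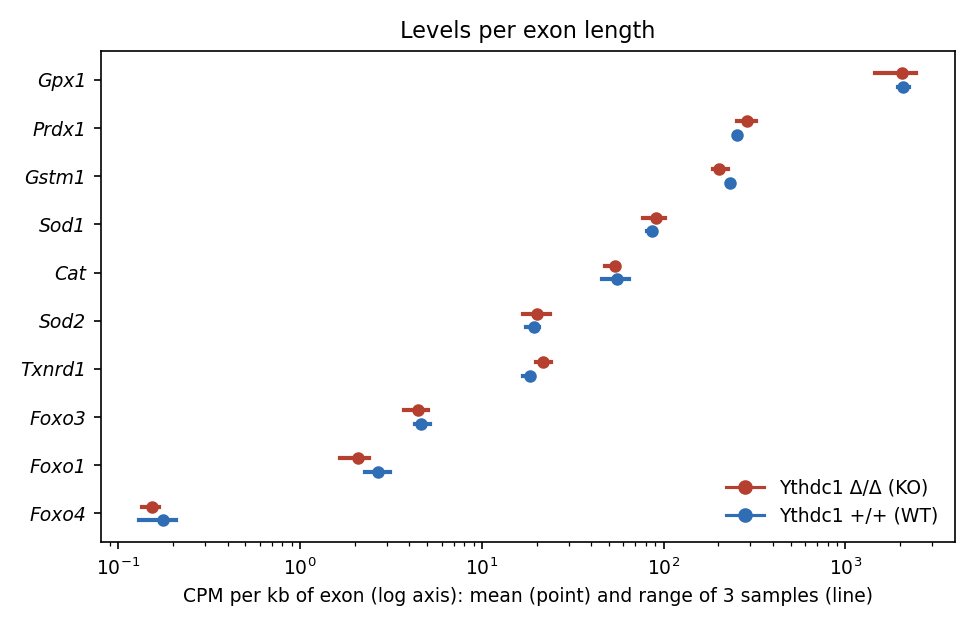
Level of each gene in CPM per kb of exon on a log axis, with the mean as a point and the range of 3 samples as a line, KO above WT. *Gpx1* lies at about 2036 in KO and 2073 in WT, and *Foxo4* at 0.15 in KO and 0.18 in WT, and *Sod2* and *Txnrd1* are the only neighbours that overlap within a genotype.

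Promoter windows of 300 bases were given by RefSeq on GRCm38.p6 (mm10) for 9 of the 10 genes, 12 windows in all, with no entry for *Foxo4*. The ARE core TGACNNNGC, read on both strands, was present in 3 of the 12 windows, those of *Sod1*, *Prdx1* and 1 of the 3 start sites of *Txnrd1*, and in 12.4% of 32851 mouse promoter windows of the same length. These 3 stretches are shown because they carry the motif by which NRF2 is known to act on such genes. They are given 5′ to 3′ on the strand of the gene, end before the start site, and have the motif in capitals, which in all 3 reads on the opposite strand.
Sod1 (chr16:90220676-90220744, plus strand): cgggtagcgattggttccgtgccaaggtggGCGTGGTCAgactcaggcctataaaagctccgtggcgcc
Prdx1 (chr4:116685436-116685504, plus strand): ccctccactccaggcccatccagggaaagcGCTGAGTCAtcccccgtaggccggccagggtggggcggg
Txnrd1 (chr10:82859084-82859152, plus strand): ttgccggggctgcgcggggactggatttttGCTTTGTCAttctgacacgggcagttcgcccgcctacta

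The motif ended 48 bases before the start of *Sod1*, 125 before that of *Prdx1* and 84 before that of *Txnrd1*. The FOXO site GTAAACA was in 0 of the 12 windows, against 3.65% of all windows. The insulin response element CAAAACA, another sequence that FOXO proteins are known to bind, was in 6.28% of all windows and in both windows of *Gstm1*. It is shown here for comparison with the ARE set, with the element in capitals.
Gstm1 (chr3:108018006-108018072, minus strand): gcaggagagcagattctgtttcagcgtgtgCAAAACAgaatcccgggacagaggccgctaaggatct

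The 2 start sites of *Gstm1* share part of their windows, and the copy shown lies in both. A second copy, on the opposite strand, ended 58 bases before one of the start sites. A match in these windows is a description of the sequence and not a bound site, and no match says only that these letters are not in this window.

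Deletion of *Ythdc1* was compared with the wild type gene by gene. Of the 10 genes, 0 passed an adjusted p of 0.05 in edgeR's quasi-likelihood test over 18234 genes, where 0.137% of all tested genes did (25 genes, 16 higher and 9 lower in KO). At an unadjusted p under 0.05, 0 of the 10 were higher and 0 lower, against 4.28% of all tested genes higher and 5.2% lower, and DESeq2 also called 0 of the 10. By estimate 4 were higher and 6 lower in KO, with a median log2 fold change of -0.03, beside -0.0062 over all tested genes. The 95% interval lay within a 1.5-fold change either way for 8 genes and within a 2-fold change for all 10.

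Among the FOXO factors, *Foxo1*, on chromosome 3 from 52268336 to 52353221, had the estimate furthest from 0. It was at 14.4 CPM in KO176, 18.9 in KO177 and 20.7 in KO209, against 22.5 in WT178, 19.8 in WT180 and 27.1 in WT207. KO176 was below every WT sample, KO177 was just below WT180, and KO209 lay above WT180, so that the genotypes overlapped in that 1 place. The log2 fold change was -0.36 ± 0.17 (SE, 95% interval -0.74 to 0.02, adjusted p = 0.545, edgeR), and the exact two-sided permutation p was 0.2, where the smallest that 3 against 3 samples allow is 0.1. The estimate was -0.22 without KO176 and -0.23 without WT207. Of its exon length 7.78% is shared with *Gm20402*, and the counts were made without strand.

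*Foxo3*, on chromosome 10 from 42181841 to 42276755, is the factor of this family best known for keeping mouse HSCs. It was at 28.1, 34.8 and 38.3 CPM in KO176, KO177 and KO209, against 39.4, 32.4 and 33.2 CPM in WT178, WT180 and WT207. The ranges overlapped, and the log2 fold change was -0.05 ± 0.14 (SE, 95% interval -0.37 to 0.27, adjusted p = 0.934, edgeR). As a ratio the interval ran between 0.77 and 1.203. The 2 libraries of WT180 differed by 1.48-fold in *Foxo3*, at 38.5 and 26.0 CPM, more than the means of the 2 genotypes did.

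*Foxo4*, on chromosome X from 101254528 to 101260873, was at 0.473, 0.549 and 0.586 CPM in KO176, KO177 and KO209, against 0.456, 0.664 and 0.726 CPM in WT178, WT180 and WT207. At this depth the log2 fold change of -0.20 had a 95% interval of -0.87 to 0.47, so the data allow a lower level in KO by over 1.5-fold. The *Foxo4* estimate was -0.37 without WT178, -0.12 without KO176 and -0.07 without WT207. Its libraries differed by up to 2.65-fold within 1 sample. *Foxo6*, the remaining member of the family, had at most 2 counts in a sample and was not tested.

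Superoxide dismutases did not separate the genotypes. *Sod1*, on chromosome 16 from 90220754 to 90226329, was at 406, 363 and 307 CPM in KO176, KO177 and KO209, against 357, 352 and 320.1 CPM in WT178, WT180 and WT207. The KO samples spanned the whole WT range and reached beyond it at both ends, and the log2 fold change was 0.06 ± 0.13 (SE, adjusted p = 0.909, edgeR). *Sod2*, on chromosome 17 from 13006846 to 13040063, was at 237, 195 and 169 CPM in KO176, KO177 and KO209, against 207.01, 201 and 175.6 CPM in WT178, WT180 and WT207. It showed the same wider spread in KO, and its log2 fold change was 0.04 ± 0.14 (SE, adjusted p = 0.948, edgeR).

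Of the genes that remove hydrogen peroxide, *Cat*, on chromosome 2 from 103453849 to 103485160, was at 149, 149 and 124 CPM in KO176, KO177 and KO209, against 167, 120.4 and 145 CPM in WT178, WT180 and WT207. The lowest and the highest sample were both WT, and the log2 fold change was -0.03 ± 0.14 (SE, adjusted p = 0.960, edgeR). *Prdx1*, on chromosome 4 from 116685544 to 116700822, was at 982, 863 and 770.3 CPM in the 3 KO samples in the same order, against 754, 784 and 784 CPM in the 3 WT samples. KO176 and KO177 lay above all WT samples and KO209 lay within them, with a log2 fold change of 0.17 ± 0.13 (SE, 95% interval -0.12 to 0.47, adjusted p = 0.714, edgeR; exact permutation p = 0.3). The *Prdx1* estimate was 0.08 without KO176 and 0.25 without KO209.

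*Gpx1*, a selenoprotein on chromosome 9 from 108338903 to 108340343, was at 3517, 3186 and 2099 CPM in KO176, KO177 and KO209, against 2932, 3222 and 2808 CPM in WT178, WT180 and WT207. KO209 was far below the other samples and KO176 was the highest of all, so that the coefficient of variation was 25.3% in KO and 7.12% in WT. The log2 fold change was -0.03 ± 0.19 (SE, 95% interval -0.46 to 0.40, adjusted p = 0.979, edgeR), and without KO209 it was 0.17 with an adjusted p of 0.507. It was 0.02 without WT180, so the sign of the *Gpx1* estimate turned when either of these samples was left out.

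*Gstm1*, on chromosome 3 from 108012255 to 108017973, couples glutathione to reactive compounds. It was at 332, 275 and 284 CPM in KO176, KO177 and KO209, against 354, 342 and 329 CPM in WT178, WT180 and WT207. The genotypes overlapped in that KO176 was slightly above WT207, and the log2 fold change was -0.20 ± 0.12 (SE, 95% interval -0.47 to 0.07, adjusted p = 0.634, edgeR; exact permutation p = 0.2). The range over single samples left out was -0.28 to -0.15, always lower in KO.

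*Txnrd1*, a selenoprotein on chromosome 10 from 82833951 to 82897712 that keeps thioredoxin reduced, was at 169.5, 152 and 140.5 CPM in KO176, KO177 and KO209, against 119.5, 133 and 138 CPM in WT178, WT180 and WT207. It was the only 1 of the 10 genes in which every KO sample was above every WT sample, as were 7.75% of all tested genes, and 0 of the 10 had every KO sample below, as did 8.59%. The gap between KO209 and WT207 was small, and the 2 libraries of KO177 were at 179 and 122 CPM, a ratio of 1.46. The log2 fold change was 0.24 ± 0.12 (SE, 95% interval -0.02 to 0.50, adjusted p = 0.561, edgeR), and the exact two-sided permutation p was 0.1, the smallest this design allows. Leaving out 1 sample at a time gave 0.17 to 0.30, lowest without KO176.

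**Figure D2:**
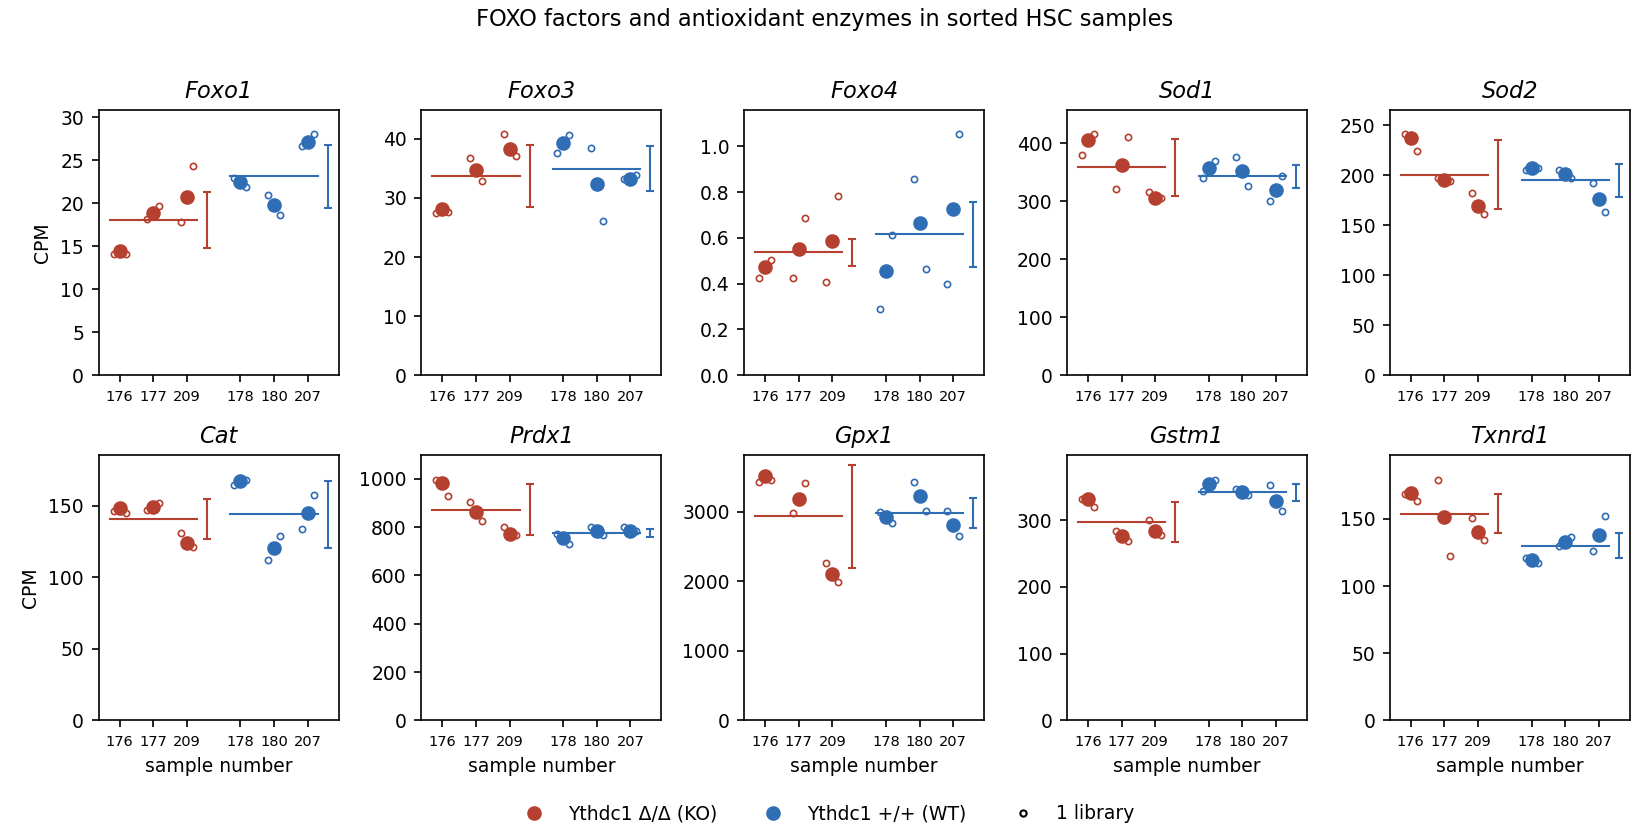
CPM of each gene by sample number, with filled points for summed samples, open points for their 2 libraries, a horizontal line for the mean of 3 samples and an error bar for their SD, KO left of WT. *Txnrd1* is the only panel in which the filled KO points (140.5 to 169.5 CPM) all lie above the filled WT points (119.5 to 138 CPM), and *Gpx1* shows the low KO209 (2099 CPM).

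**Figure D3:**
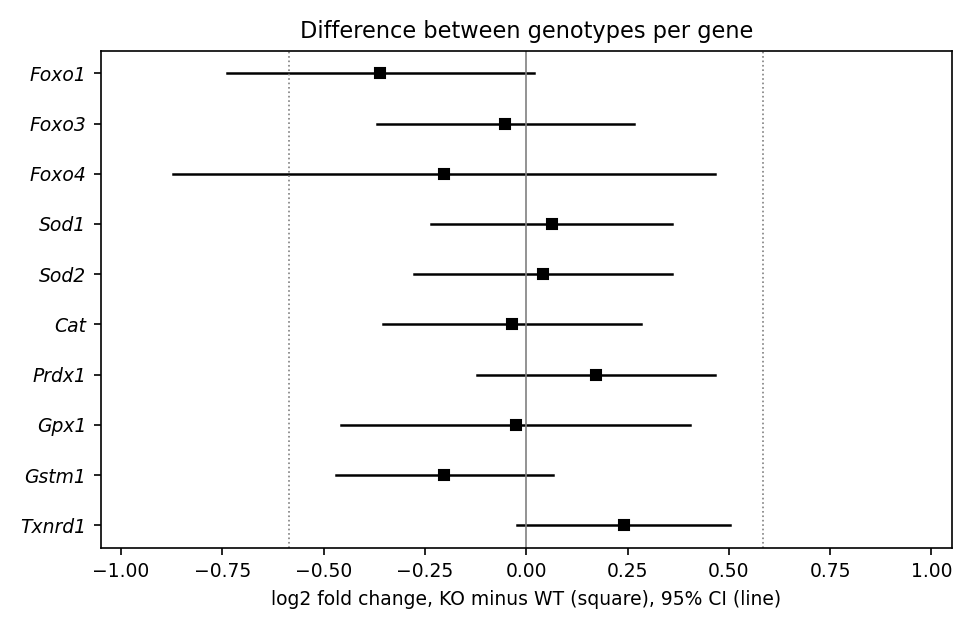
Log2 fold change (KO minus WT, squares) with its 95% interval (lines) for each gene, with dotted lines at a 1.5-fold change. All 10 intervals include 0, and those of *Foxo1* (-0.74 to 0.02) and *Foxo4* (-0.87 to 0.47) reach past the lower dotted line.

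The samples of a genotype differed in a way that many of the 10 genes shared. In KO, sample KO176 was the highest and KO209 the lowest for *Sod1*, *Sod2*, *Prdx1*, *Gpx1* and *Txnrd1*, and the reverse held for *Foxo1*, *Foxo3* and *Foxo4*. Relative to the mean of all 6 samples on the log2 scale, *Gpx1* was at 0.27 in KO176 and -0.48 in KO209, and *Foxo1* at -0.49 in KO176 and 0.04 in KO209. The distance between KO176 and KO209 was thus larger than the difference between the genotypes for these genes.

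The sum of the granulocyte markers stood in that order too, though most of the single markers did not. The 13 granulocyte markers, such as *Elane*, *Mpo* and *Ngp*, summed to 24750 CPM in KO176, 15074 in KO177 and 13088 in KO209, against 14293, 13106 and 11055 CPM in WT178, WT180 and WT207. KO176 was the highest KO sample for 9 of the 13 and KO209 for the other 4 (*Chil3*, *Ngp*, *S100a8* and *S100a9*), and the full order of the sum was that of 4 genes, *Camp*, *Ctsg*, *Mpo* and *Prtn3*. *Mpo*, the myeloperoxidase of granules, gave the largest part of the difference, at 10914, 5183 and 2222 CPM in KO176, KO177 and KO209, against 4775, 5388 and 2064 CPM in WT178, WT180 and WT207. *Ngp*, the marker next in level, did not follow the order, at 3307, 2739 and 3445 CPM in KO176, KO177 and KO209. All 13 had a higher estimate in KO, 2 of them at an unadjusted p under 0.05 (4.28% of all tested genes) and 0 past the adjusted threshold, and none was at 0 in every sample. The summed level of the 10 genes followed the same order in KO, at 5835, 5238 and 3953 CPM in KO176, KO177 and KO209, against 4955, 5208 and 4760 CPM in WT178, WT180 and WT207. *Gpx1* made up most of that sum, at 3517, 3186 and 2099 CPM in KO176, KO177 and KO209. *Cat* and *Gstm1* did not follow this order, and the FOXO factors ran in the reverse order. The part of granulocyte RNA in the levels of the 10 genes was not tested. In bulk samples fewer cells of a type and less RNA per cell cannot be told apart.

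Markers of other cells were compared as well, and the erythroid, megakaryocyte and T cell sums overlapped between the genotypes. Stromal markers were higher by estimate in 11 of 12 tested genes, and *Lepr*, *Adipoq* and *Sparc* passed the adjusted threshold, with a sum of 177.98 to 188 CPM in KO and 145 to 174 CPM in WT, and *Cdh5* had at most 10 counts in a sample. B cell markers were higher in 11 of 12 (181 to 220 CPM in KO, 148 to 160 CPM in WT), macrophage markers in 9 of 10 (106 to 132 CPM in KO, 87.7 to 91.2 CPM in WT) and erythroid markers in 10 of 11 (57.1 to 70.9 CPM in KO, 44.6 to 76.4 CPM in WT), with 0 genes past the adjusted threshold in each list. Megakaryocyte markers were lower in 6 of 7 (179 to 306 CPM in KO, 295 to 427 CPM in WT) and T cell markers higher in 4 of 6 (44.6 to 58.6 CPM in KO, 46.7 to 56.2 CPM in WT), also with 0 past the threshold. At an unadjusted p under 0.05 (edgeR), 7 stromal, 6 B cell, 4 macrophage and 1 erythroid markers were higher, against 4.28% of all tested genes. Lower were 3 megakaryocyte markers, against 5.2%. Every KO sample was above every WT sample for 7 stromal, 4 B cell and 3 macrophage markers (7.75% of all tested genes). The reverse held for 3 megakaryocyte markers and 1 stromal marker (8.59%). The part of these cells in the levels of the 10 genes was not tested.

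**Figure D4:**
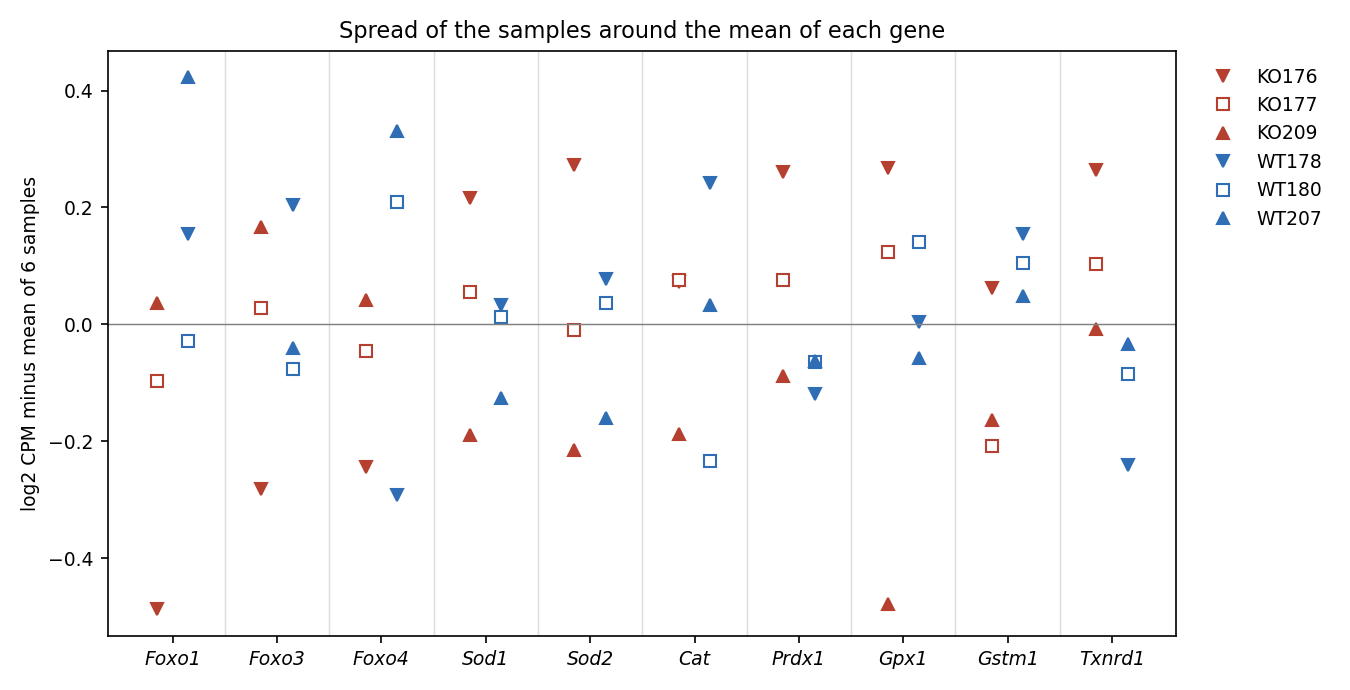
Log2 CPM of each summed sample minus the mean of the 6 samples, for each gene, KO left of WT and 1 marker per sample. Sample KO176 lies highest among the KO samples and KO209 lowest for 5 enzymes (*Gpx1* 0.27 and -0.48), and the order is turned round for the 3 FOXO factors (*Foxo1* -0.49 and 0.04).

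The sample numbers fell into a lower range (KO176, KO177, WT178 and WT180) and a higher range (KO209 and WT207), which the labels do not explain. KO209 and WT207 were the lowest of their genotype for *Sod1*, *Sod2* and *Gpx1* and the highest for *Foxo1* and *Foxo4*. Within the higher range, which holds 1 sample of each genotype and allows no test, the log2 difference KO minus WT was -0.39 for *Foxo1*, -0.21 for *Gstm1*, 0.03 for *Txnrd1*, -0.03 for *Prdx1* and -0.42 for *Gpx1*. Within the lower range, with 2 samples each, it was -0.35 for *Foxo1*, -0.20 for *Gstm1*, 0.35 for *Txnrd1*, 0.26 for *Prdx1* and 0.12 for *Gpx1*. *Foxo1* and *Gstm1* were thus lower in KO by a like amount within both ranges, while the higher values of *Txnrd1* and *Prdx1* came from the lower range. Fitted on the lower range alone, these were not past the threshold either (adjusted p = 0.486 for *Foxo1*, 0.584 for *Gstm1*, 0.373 for *Txnrd1* and 0.466 for *Prdx1*, edgeR).

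Genes that control FOXO proteins were looked at next. Of 35 tested regulators and partners, 22 had a higher and 13 a lower estimate in KO, the median log2 fold change was 0.04, and 0 passed the adjusted threshold (0 with DESeq2 and with voomLmFit). Here and below, voomLmFit was fitted to the 12 libraries with sample number as a random block, and DESeq2 to the summed samples. At an unadjusted p under 0.05, 3 were higher in KO, against 4.28% of all tested genes, and 6 had every KO sample above every WT sample, against 7.75% of all. *Skp2*, a ubiquitin ligase component that marks FOXO1 for degradation, was at 34.0 ± 2.43 CPM in KO and 27.5 ± 2.73 CPM in WT (SD, n = 3 each; log2 fold change 0.30, adjusted p = 0.465, edgeR). *Pik3cd*, a catalytic subunit of PI3K, was at 86.6 ± 9.40 CPM in KO and 70.3 ± 6.32 CPM in WT, and *Sgk3*, a kinase of the AKT kind, at 71.4 ± 5.71 CPM in KO and 58.9 ± 7.11 CPM in WT, each with every KO sample above every WT sample.

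Known FOXO targets had mostly lower estimates. Of 27 tested targets, 21 were lower and 6 higher in KO, with a median of -0.18 beside -0.0062 over all tested genes, of which 51.1% were lower. In edgeR 0 of the 27 passed the adjusted threshold, while DESeq2 and voomLmFit each called 1 (*Pink1*), out of 221 and 117 called over all genes. At an unadjusted p under 0.05 in edgeR, 3 were lower, as were 5.2% of all tested genes. In 4 every KO sample was below every WT sample, as in 8.59% of all tested genes. *Pink1*, a kinase of mitophagy, was at 149, 163 and 153 CPM in KO176, KO177 and KO209, against 219, 238 and 194 CPM in WT178, WT180 and WT207 (log2 fold change -0.49 ± 0.12, SE, adjusted p = 0.245, edgeR). The groups did not overlap, and the distance between them was wider than the range of the KO samples.

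*Bbc3*, which encodes the cell death protein PUMA, was at 14.98, 19.2 and 23.0 CPM in KO176, KO177 and KO209, against 26.1, 26.6 and 27.2 CPM in WT178, WT180 and WT207 (log2 fold change -0.48 ± 0.16, SE, adjusted p = 0.359, edgeR). *Map1lc3b*, a protein of autophagosomes, was at 499 ± 14.9 CPM in KO and 598 ± 30.3 CPM in WT (SD, n = 3 each; log2 fold change -0.26, adjusted p = 0.515, edgeR). The list spanned both arrest and death genes, and leaving out 1 sample moved its median between -0.24 (without KO209) and -0.07 (without WT207), with -0.11 without KO176.

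Among 11 other dismutases, glutathione peroxidases and peroxiredoxins, 7 had a higher and 4 a lower estimate, with a median of 0.01. In edgeR 1 gene passed the adjusted threshold, as did 0.137% of all tested genes. *Gpx3*, the secreted glutathione peroxidase, was at 17.4, 10.7 and 15.8 CPM in KO176, KO177 and KO209, against 4.42, 4.38 and 4.72 CPM in WT178, WT180 and WT207. Every KO sample was more than 2-fold above every WT sample, and the log2 fold change was 1.70 ± 0.20 (SE, 95% interval 1.25 to 2.14, adjusted p = 0.0218, edgeR). The estimate stayed between 1.56 and 1.88 with 1 sample left out, but the adjusted p was 0.194 without WT178, 0.183 without WT180 and 0.112 without WT207. The stromal markers *Lepr*, *Adipoq* and *Sparc* were higher in KO as well, and the part of stromal RNA in the *Gpx3* level was not tested.

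*Gpx7*, a peroxidase of the endoplasmic reticulum, was at 7.39 ± 0.89 CPM in KO and 10.02 ± 0.79 CPM in WT (SD, n = 3 each; log2 fold change -0.44, adjusted p = 0.413, edgeR). *Prdx3*, the mitochondrial peroxiredoxin, was at 120.0 ± 6.14 CPM in KO and 108 ± 0.10 CPM in WT (log2 fold change 0.15, adjusted p = 0.677, edgeR). Both had groups that did not overlap, *Gpx7* with KO below WT as in 8.59% of all tested genes and *Prdx3* with KO above as in 7.75%.

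Genes of glutathione use had mostly lower estimates as well. Of 28 tested, 19 were lower and 9 higher in KO, with a median of -0.22 and 0 past the adjusted threshold in edgeR. DESeq2 called 3 of them lower (*Gstt1*, *Gstm2* and *Gstm5*) and voomLmFit 2 (*Gstt1* and *Gstm5*), out of 221 and 117 called over all genes. The median was -0.13 without KO209, -0.14 without KO177 and -0.15 without WT207. At an unadjusted p under 0.05, 9 were lower and 2 higher, against 5.2% and 4.28% of all tested genes, and 8 had every KO sample below every WT sample, against 8.59% of all. *Gstt1*, a glutathione transferase of the theta class, was at 8.45, 10.2 and 10.9 CPM in KO176, KO177 and KO209, against 17.5, 15.7 and 20.5 CPM in WT178, WT180 and WT207 (log2 fold change -0.86 ± 0.16, SE, adjusted p = 0.113, edgeR). The highest KO sample was well below the lowest WT sample.

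Relatives of *Gstm1*, which lie beside it on chromosome 3, included 4 with estimates further below 0 than that of *Gstm1*. *Gstm5* was at 30.2, 35.3 and 36.3 CPM in KO176, KO177 and KO209, against 47.2, 49.3 and 50.4 CPM in WT178, WT180 and WT207 (log2 fold change -0.53 ± 0.11, SE, adjusted p = 0.184, edgeR). *Gstm2* was at 4.29 ± 0.49 CPM in KO and 7.97 ± 1.56 CPM in WT (SD, n = 3 each; log2 fold change -0.89, adjusted p = 0.193, edgeR). *Gstm7* had a log2 fold change of -0.56 (adjusted p = 0.297, edgeR), and *Gstm6*, at 0.17 to 0.48 CPM in KO and 0.50 to 0.77 CPM in WT, one of -0.96 (adjusted p = 0.468, edgeR), while *Gstm4* was at -0.03 (adjusted p = 0.960, edgeR).

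The tested *Gstm* genes other than *Gstm1* summed to 73.1, 81.3 and 87.0 CPM in KO176, KO177 and KO209, against 107, 109 and 104 CPM in WT178, WT180 and WT207, and these sums did not overlap. *Gstm1* made up 76.5% to 81.9% of the *Gstm* counts in KO and 75.8% to 76.8% in WT. Counts of this family are uncertain, since its members are near copies of each other and read pairs that map to several places were not counted, and *Gstm5* shares 13.9% of its exon length with another gene. *Gstm3* had at most 4 counts in a sample and was not tested.

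Thioredoxin and glutaredoxin genes were even in direction. Of 15 tested, 7 were higher and 8 lower, with a median of -0.0054 and 0 past either threshold (0 also called by DESeq2 and voomLmFit), and *Glrx3*, a glutaredoxin of iron handling, had the smallest p at 322 ± 23.7 CPM in KO and 270.4 ± 11.1 CPM in WT (SD, n = 3 each; log2 fold change 0.25, adjusted p = 0.529, edgeR). *Msrb2*, a mitochondrial methionine sulfoxide reductase, was at -0.23 and *Sesn2*, a stress-induced sestrin, at -0.22. Of 27 genes of the NRF2 axis, 13 were higher and 14 lower, with a median of -0.04 and 0 past the adjusted threshold in edgeR, DESeq2 or voomLmFit. At an unadjusted p under 0.05, 1 was higher and 1 lower, against 4.28% and 5.2% of all tested genes. *Slc7a11*, the cystine importer, was at 1.66 ± 0.13 CPM in KO and 1.13 ± 0.17 CPM in WT (log2 fold change 0.55, adjusted p = 0.484, edgeR), whereas *Sqstm1*, which encodes the autophagy adaptor p62, was at 220.0 ± 4.45 CPM in KO and 262 ± 9.42 CPM in WT (log2 fold change -0.25, adjusted p = 0.493, edgeR). *Ephx1*, an epoxide hydrolase, had a log2 fold change of -0.63 (adjusted p = 0.531, edgeR).

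Enzymes that produce reactive oxygen all had higher estimates in KO. Of 8 tested, 8 were higher, with a median of 0.36. In edgeR 0 passed the adjusted threshold and 3 had an unadjusted p under 0.05 (4.28% of all tested genes). DESeq2 called 1 (*Cybb*), out of 221 called over all genes, and voomLmFit 0. The median was 0.21 without KO176 and between 0.26 and 0.52 without any other single sample. *Cybb*, the catalytic subunit of the phagocyte NADPH oxidase, was at 67.5, 37.0 and 63.7 CPM in KO176, KO177 and KO209, against 31.4, 29.5 and 37.3 CPM in WT178, WT180 and WT207 (log2 fold change 0.78 ± 0.21, SE, adjusted p = 0.294, edgeR). KO177 lay within the WT range and the other KO samples well above it.

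*Ncf1*, a cytosolic subunit of the same oxidase, was at 176.6, 108 and 75.2 CPM in KO176, KO177 and KO209, against 75.9, 75.1 and 62.3 CPM in WT178, WT180 and WT207 (log2 fold change 0.75, adjusted p = 0.480, edgeR), and *Xdh*, the xanthine oxidoreductase, at 15.8, 7.08 and 8.35 CPM in the KO samples, against 6.92, 6.87 and 5.999 CPM in the WT samples (log2 fold change 0.65, adjusted p = 0.505, edgeR). KO176 was the highest sample for all 3 genes, as it was for the sum of the granulocyte markers, whose part in these levels was not tested. *Duox1* and *Duox2* had at most 13 counts in a sample and were not tested.

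**Figure D5:**
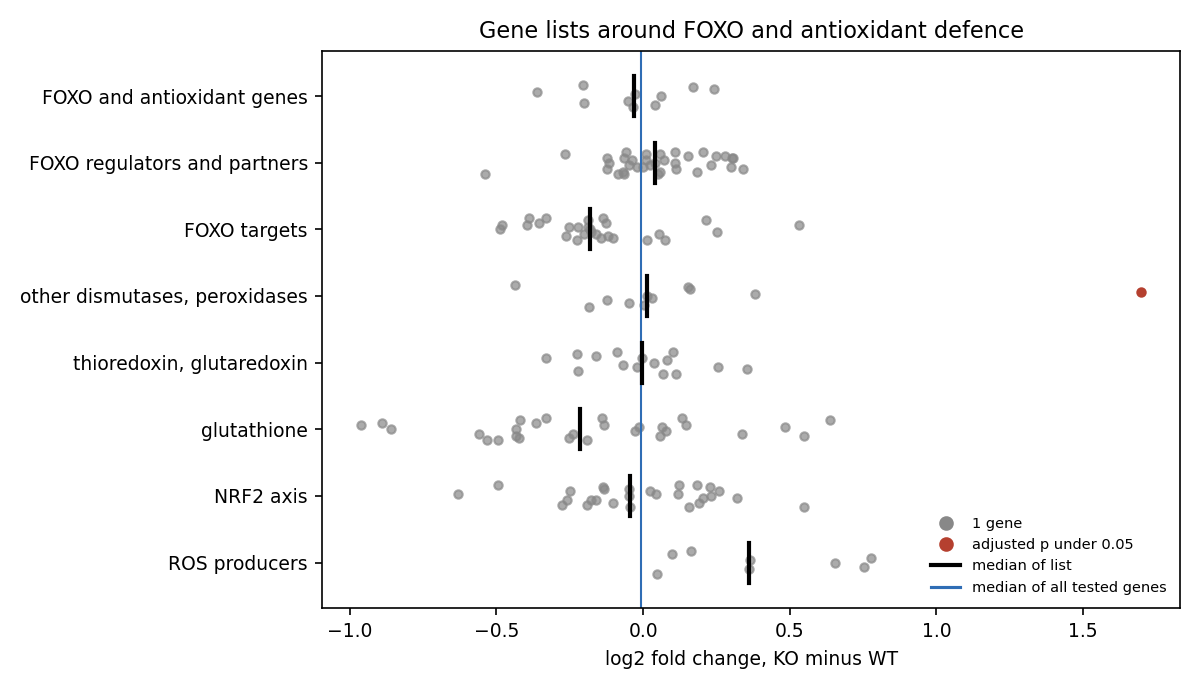
Log2 fold change (KO minus WT) of each tested gene in 8 lists, with the list's median as a black bar and the median of all tested genes (-0.0062) as a blue line. The bars lie at -0.18 for FOXO targets, -0.22 for glutathione and 0.36 for producers of reactive oxygen (ROS), and *Gpx3* at 1.70 is the only gene past the adjusted threshold.

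The genes closest in pattern to the FOXO factors over the 6 summed samples were found by the root mean square difference of log2 CPM, each gene centred on its own mean, among genes at 10 CPM or more. For *Foxo1* they were *Rab11fip3* (0.05), *Nlgn2* (0.06) and *Lrrc1* (0.06), for *Foxo3* they were *Ccdc163* (0.04), *Gfod2* (0.04) and *Zfp940* (0.04), and for *Foxo4* they were *Trip11* (0.06), *Dennd3* (0.06) and *Chd4* (0.06). These are the closest of 9130 candidate genes for *Foxo1* and *Foxo3* (9131 for *Foxo4*), measured over 6 samples only. The *Foxo4* pattern rests on 19 to 34 counts per sample, with libraries up to 2.65-fold apart within 1 sample. Its nearest genes may therefore match counting noise.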

How the data were processed

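The authors deposited 1 table of raw counts of read pairs per gene, not normalized, made with featureCounts 2.0.1 (header and submitters' notes) on mm10, over exons, without strand, and without pairs that mapped to several places or to 2 genes. The table also gives the exon length (other unit) that the authors' file header names Length. The 2 libraries of each sample number were summed. Genes were kept by filterByExpr (minimum count 10, minimum total 15), scaled by TMM and tested with edgeR 4.0.16 (quasi-likelihood, R 4.3.3) over 18234 genes, with Benjamini-Hochberg adjustment and a threshold of 0.05. Log2 fold changes are KO minus WT. Of the gene identifiers, 55154 had a symbol. Libraries held 20809936 to 24563170 counts. Between the libraries of a sample the chi-square of the counts over its degrees of freedom was 5.62 to 19.0, so they were not the same library deposited again, and they were counted as 1 sample.

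The genes and lists were chosen with earlier results of these data known. Named were all 10 genes, the genes of each pathway list past the threshold and up to 3 with the smallest p, the 3 nearest genes of each FOXO factor, and *Ythdc1*. *Gstm4*, *Gstm6*, *Gstm7* and genes with too few counts were named after their values were seen. Marker genes are named as examples. Alternatives were other scalings, filters, DESeq2 1.42.0 on the summed samples, the 12 libraries apart, a replicate block, a term for the number range and single samples left out. Another was voomLmFit (edgeR 4.0.16 with limma 3.58.1) on the 12 libraries, with sample number as a random block. The steps were tested on simulated data. Figures were drawn with Python and matplotlib.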

Additional observations from a re-analysis of the deposited data

Results flagged for a closer look

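For each of the 10 genes, the 6 libraries of each genotype were checked for a single library far from the others, 20 groups in all. With 6 independent values chance alone marks about 1 group in 20. The 6 libraries are 2 from each of 3 sample numbers, so this rate need not hold here. One was marked. *Sod2* was at 164 CPM in library 2 of WT207, while the other 5 WT libraries were at 192 to 206.8 CPM. The summed sample WT207 was still within the range of the KO samples, and the *Sod2* log2 fold change without it was -0.03.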

How the results depend on the processing

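None of the 10 genes was past the adjusted threshold in any of 17 alternatives, and the lowest adjusted p was 0.1 (*Gstm1*, over 0.1 to 0.909). An unadjusted p under 0.05 was reached by 1 gene, *Foxo1*, without a filter and with the term for the number range (edgeR). It was also reached by 1 in the lower range alone (*Txnrd1*), 1 without KO176 (*Gstm1*), 2 with voomLmFit (*Foxo1* and *Gstm1*) and 4 with the 12 libraries apart. *Foxo1*, *Prdx1*, *Gstm1* and *Txnrd1* kept their direction in all 17, and *Foxo4* in the 16 in which it was tested. No scaling moved the median of all tested genes by over 0.1 on the log2 scale. Over all genes 25 were called, against 16 with upper quartile scaling, 15 with the legacy option, 3 with the stricter filter, 73 without a filter, 221 with DESeq2, 117 with voomLmFit, 85 with a term for the number range, 751 with the 12 libraries apart and 1 (without WT178) to 81 (without KO209) with a sample left out. A replicate block for the number of the library within its sample gave 717 calls, although no label pairs libraries across genotypes by that number. The causes were not tested, except that libraries taken apart count each sample more than once. The median of the 10 genes was 0.061 in the lower number range alone and -0.081 to 0.10 with a sample left out. Estimates that changed sign were those near 0: in the lower range alone *Cat* was at 0.046 and *Gpx1* at 0.12, and with a sample left out *Foxo3* was at -0.15 to 0.071, *Sod1* at -0.029 to 0.16, *Sod2* at -0.091 to 0.15, *Cat* at -0.155 to 0.088 and *Gpx1* at -0.17 to 0.17.

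Calls in the other lists depended on the test. DESeq2 called 1 FOXO target, 3 glutathione genes and 1 producer of reactive oxygen, voomLmFit 1 FOXO target and 2 glutathione genes, no filter 2 glutathione genes, and the term for the number range 1. The 12 libraries apart, and likewise the replicate block, gave 3 FOXO targets, 5 glutathione genes, 1 thioredoxin or glutaredoxin gene, 1 NRF2 axis gene and 1 producer of reactive oxygen. *Gpx3* was called in 13 of 17, with 0 calls in its list under the stricter filter (*Gpx3* adjusted p = 0.053, edgeR), and 0 to 1 with a sample left out, as for the glutathione genes. The glutathione median was -0.18 with no filter and with the stricter filter, -0.17 with voomLmFit, -0.14 with the replicate block, -0.12 in the lower range alone and -0.20 to -0.13 with a sample left out. With a sample left out the medians were -0.24 to -0.075 for FOXO targets, -0.070 to 0.063 for thioredoxin and glutaredoxin genes and -0.051 to 0.058 for the NRF2 axis, which was at 0.072 in the lower range alone.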
